A study of Mus musculus with 2 samples.

Results

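The genes described here form 3 paralogous miRNA clusters, each made of a Mir99 or Mir100 gene, a let-7 gene and a Mir125 gene in that order. They are Mir99a, Mirlet7c-1 and Mir125b-2 (the Mir99a cluster), Mir99b, Mirlet7e and Mir125a (the Mir99b cluster), and Mir100, Mirlet7a-2 and Mir125b-1 (the Mir100 cluster). The 9 genes were chosen by name, not by level, from the 2202 miRNA genes of the count tables. All 9 were detected, a gene counting as detected where neither library fell below 2 CPM. CPM (counts-per-million) is the gene's own-strand reads over all own-strand reads of miRNA genes, times 1000000. Over all miRNA genes, 274 of 2202 (12.4%) were detected at this threshold, and 1494 had no read. All 9 let-7 genes outside the clusters were detected too.

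MicroRNAs are cut from hairpin precursors, and the strand that is kept guides a silencing complex to messenger RNAs, mainly by pairing through its seed. In flies, mir-100, let-7 and mir-125 are made from a single transcript, and the gene order is conserved in vertebrates. The let-7 miRNAs, first known from nematode developmental timing, mark differentiated tissue and repress growth genes. The miR-125 miRNAs are the vertebrate relatives of nematode lin-4 and, like let-7, repress Lin28, whose protein blocks let-7 processing. The miR-99 and miR-100 miRNAs are known for repressing components of the mTOR growth pathway. In cultured mouse myoblasts miR-125b is known to repress the growth factor gene Igf2.

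The libraries came from myotubes of C2C12, a myoblast line first isolated from injured thigh muscle of C3H mice, differentiated in culture for 72 h. The labels give 1 group with 2 biological replicates from separate biosamples of the line, and name neither a treatment nor an undifferentiated control. Comparisons were therefore made between genes and between the 2 replicate libraries. Replicate 1 held 7581366 miRNA reads and replicate 2 held 9865298, so that 3 reads, the most that a count of 0 allows, corresponded to 0.396 and 0.304 CPM. Intervals given below are 95% exact Clopper-Pearson intervals and cover counting error of reads only. Skeletal muscle markers gave a sum of 355315 CPM in replicate 1, against 428275 in replicate 2, and all 9 had reads. Mir206 made up most of that sum, at 340841 and 416794 CPM. Mir133b, Mir499, Mir208b and Mir486 had means of 12089, 471, 378 and 30.9 CPM. Mir1a-1, Mir1a-2, Mir133a-1 and Mir133a-2 were low by counted reads, with means of 2.94, 3.02, 2.01 and 1.03 CPM. Reads that map to several places are outside these counts. Copies of the marker genes' mature sequences were not searched for, so low counts do not show that a mature miRNA was absent. Markers of blood cells summed to 101 and 183 CPM, and of endothelium to 219 and 44.5 CPM. Those of neurons, epithelium and liver summed to under 5 CPM each, with 5 of 6 neuronal and 2 of 5 epithelial genes at 0. These sums have the same limit, and counts of 0 do not show that a mature miRNA was absent. The part of these other cells in the levels below was not tested.

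The 3 clusters were alike in order and unlike in spacing. Coordinates are 1-based on mm10 (GRCm38), and all 9 genes lie on the plus strand. Mir99a (ENSMUSG00000065530.1, chr16:77598936-77599000), Mirlet7c-1 (ENSMUSG00000065557.3, chr16:77599657-77599750) and Mir125b-2 (ENSMUSG00000065472.1, chr16:77646273-77646343) lie in introns of the long non-coding RNA gene Mir99ahg. Mir99a and Mirlet7c-1 also lie in an intron of Gm11146 on the opposite strand, and the end of Mir125b-2 overlaps an exon of C130023A14Rik. Mir99b (ENSMUSG00000065396.1, chr17:17830188-17830257) and Mirlet7e (ENSMUSG00000105758.1, chr17:17830352-17830444) lie in introns of Spaca6, a sperm gene needed for fertilization, and Mir125a (ENSMUSG00000065479.2, chr17:17830812-17830879) overlaps an annotated exon of it. Mir100 (ENSMUSG00000093011.1, chr9:41531425-41531504), Mirlet7a-2 (ENSMUSG00000092770.1, chr9:41536716-41536811) and Mir125b-1 (ENSMUSG00000093354.1, chr9:41581926-41582002) lie in introns of the non-coding genes 3110039I08Rik and Gm49317. Mir125b-1 also overlaps an exon of Gm28119, and Mir100 an exon of Gm48742 on the opposite strand. The Mir99b cluster was compact, spanning 692 bases, with 94 bases between Mir99b and Mirlet7e and 367 bases between Mirlet7e and Mir125a. The Mir99a cluster spanned 47408 bases and the Mir100 cluster 50578 bases. In both of these most of the length lay between the let-7 gene and the Mir125 gene, 46522 bases in the Mir99a cluster and 45114 bases in the Mir100 cluster, while the let-7 gene followed the first gene after 656 and 5211 bases.

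The mature sequences show which of these genes share an exact arm with another annotated hairpin. The 5p arms are given 5′ to 3′ from RefSeq on GRCm38.p6, with the seed (bases 2 to 8) in capitals, and all 9 genes matched an entry. The first genes share 1 seed.
mmu-miR-99a-5p: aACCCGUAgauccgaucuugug
mmu-miR-100-5p: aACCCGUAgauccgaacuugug
mmu-miR-99b-5p: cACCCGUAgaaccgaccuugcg
The let-7 genes share another. RefSeq lists let-7a-5p under Mirlet7a-1, and the same bases occur in the Mirlet7a-2 hairpin.
mmu-let-7c-5p: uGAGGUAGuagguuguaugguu
mmu-let-7a-5p: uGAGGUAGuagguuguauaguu
mmu-let-7e-5p: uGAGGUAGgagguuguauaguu
The Mir125 genes share the last, and Mir125b-1 and Mir125b-2 give the same 5p arm. Mir351, a gene outside the clusters, is shown because it has the same seed.
mmu-miR-125a-5p: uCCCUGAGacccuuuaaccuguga
mmu-miR-125b-5p: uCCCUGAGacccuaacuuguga
mmu-miR-351-5p: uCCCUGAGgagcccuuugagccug

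Counted from the 5′ end, miR-99a-5p and miR-100-5p differed by the single substitution U16A (miR-99a base first). miR-99a-5p and miR-99b-5p differed by A1C, U11A, U16C and U21C. let-7c-5p and let-7a-5p differed by G19A, and let-7a-5p and let-7e-5p by U9G. miR-125b-5p and miR-125a-5p shared their first 13 bases. Each 5p arm was searched for in all 2202 annotated miRNA hairpins. The search took exact matches only and did not cover the rest of the genome. The arms of Mir99a, Mir99b, Mir100, Mirlet7e and Mir125a each occurred in 1 hairpin. let-7c-5p occurred in Mirlet7c-1 and Mirlet7c-2, let-7a-5p in Mirlet7a-1 and Mirlet7a-2, and miR-125b-5p in Mir125b-1 and Mir125b-2. The 3p arm of Mirlet7a-1, let-7a-1-3p, occurred in Mirlet7a-1 and Mirlet7c-2. The 3p arms of the 4 cluster genes, shown because they set these genes apart from their copies, each occurred in 1 hairpin.
mmu-let-7c-1-3p: cUGUACAAccuucuagcuuucc
mmu-let-7a-2-3p: cUGUACAGccuccuagcuuuc
mmu-miR-125b-1-3p: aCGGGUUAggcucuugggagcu
mmu-miR-125b-2-3p: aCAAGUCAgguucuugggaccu
The 3p arms of Mir125b-1 and Mir125b-2 differed by G3A, G4A, U7C, C11U and G20C. The tables count reads that map to several places in a line of their own, 3378438 reads in replicate 1 and 3295854 in replicate 2, and do not say which genes these came from. The values of Mirlet7c-1, Mirlet7a-2, Mir125b-1 and Mir125b-2 below therefore leave out any read of a shared arm that mapped to both copies, and they measure neither mature let-7c, let-7a nor miR-125b. These 4 genes held 11663 counted reads in replicate 1 and 13012 in replicate 2. The tables give 1 count per gene, so reads of the 5p and 3p arms could not be separated.

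By counted reads, the first genes of the clusters were the abundant ones. Mir99a stood at 29486 CPM in replicate 1 and 27699 CPM in replicate 2, which made it the 6th and 5th most abundant miRNA gene of those libraries. Mir99b stood at 11805 and 10529.8 CPM, and Mir100 at 8135 and 8073 CPM. Their means were 28592 ± 1263, 11168 ± 902 and 8104 ± 43.7 CPM (SD, n = 2), and the order Mir99a, Mir99b, Mir100 was the same in both libraries with no overlap of their values. Mir99a exceeded Mir99b by 1.36 ± 0.05 and Mir100 by 1.82 ± 0.06 on the log2 scale (SD, n = 2). The 3 genes were among the 20 miRNA genes with the highest means, and together took 4.94% of miRNA reads in replicate 1 (interval 4.93% to 4.96%) and 4.63% in replicate 2 (4.62% to 4.64%).

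**Figure D1:**
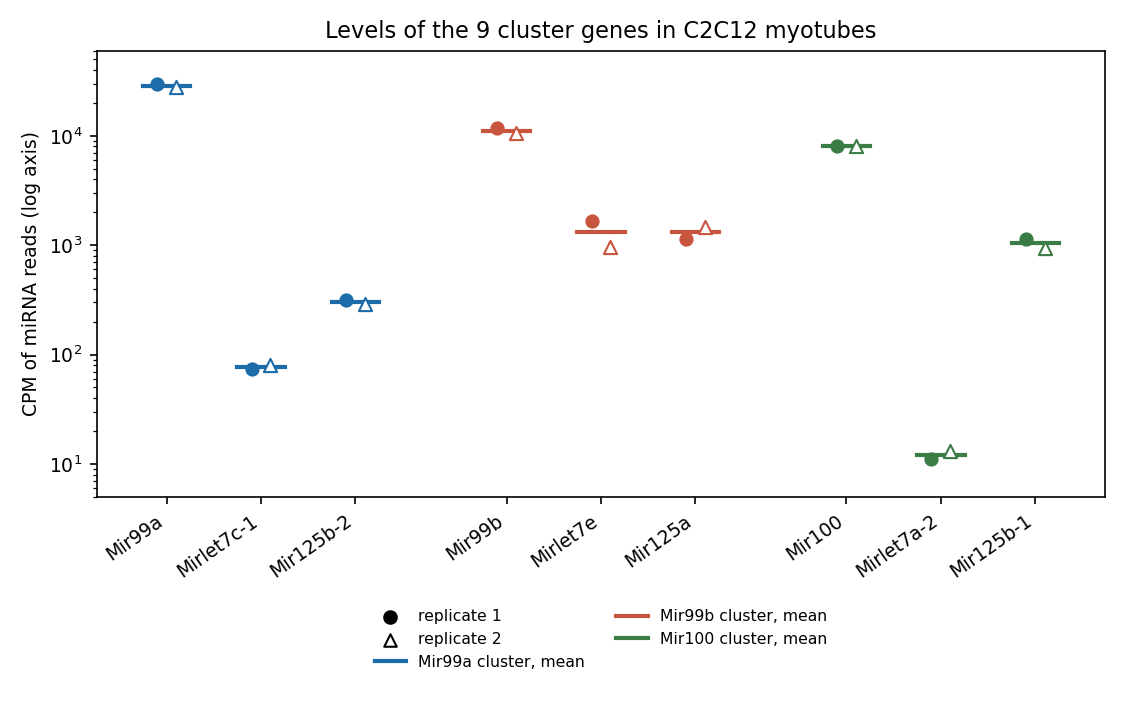
Level of the 9 genes in CPM on a log axis, by cluster and in gene order, with replicate 1 as circles, replicate 2 as triangles and the mean of both as a bar. The Mir99a, Mir99b and Mir100 genes lie at 8073 CPM or above in both libraries, and Mirlet7a-2 lies lowest, at 11.1 and 13.2 CPM.

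The let-7 genes of the clusters differed from each other by more than the libraries did. Mirlet7e, whose 5p arm has no exact copy in another hairpin, had 1679 CPM in replicate 1 and 969 CPM in replicate 2. Mirlet7c-1 had 73.5 and 80.9 CPM, and Mirlet7a-2 had 11.1 and 13.2 CPM, the lowest of the 9. Mirlet7e was thus high and uneven, and the genes with copied arms were low. Mirlet7e exceeded Mirlet7c-1 by 4.05 ± 0.66 and Mirlet7a-2 by 6.71 ± 0.73 on the log2 scale (SD, n = 2), and these differences are uncertain because of the reads left out of the copies. The copies outside the clusters were of the same order as the cluster genes, with 60.4 and 49.3 CPM for Mirlet7c-2 and 16.0 and 20.2 CPM for Mirlet7a-1. The let-7 genes of the clusters together took 0.176% of miRNA reads in replicate 1 and 0.106% of those in replicate 2, and Mirlet7e held 95.2% and 91.2% of that.

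By counted reads, the Mir125 genes lay below the first genes in both libraries. Mir125a had 1137 CPM in replicate 1 and 1477 CPM in replicate 2. Mir125b-1 had 1139 and 937 CPM, and Mir125b-2 had 315 and 288 CPM. Mir125a and Mir125b-1 were not ordered by these libraries, because Mir125b-1 was level with Mir125a in replicate 1 and below it in replicate 2. Both were above Mir125b-2 in each library. Mir125b-1 exceeded Mir125b-2 by 1.78 ± 0.11 on the log2 scale (SD, n = 2), or 3.62-fold in replicate 1 and 3.25-fold in replicate 2. This ratio rests on reads that could be placed on 1 of the 2 copies, and the split of shared miR-125b-5p reads between them was not measured. The Mir125 genes together took 0.259% and 0.270% of miRNA reads.

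Ordered by mean, the genes ran Mir99a, Mir99b, Mir100, Mirlet7e, Mir125a, Mir125b-1, Mir125b-2, Mirlet7c-1 and Mirlet7a-2. Of the 8 pairs of neighbours in this order, 6 were separated, in that every library value of the higher gene was above every value of the lower. The exceptions were Mirlet7e with Mir125a, at means of 1324 ± 502 and 1307 ± 241 CPM, and Mir125a with Mir125b-1, at 1307 ± 241 and 1038 ± 143 CPM (SD, n = 2).

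Within every cluster the first gene held most of the counted reads. Multimapping reads of let-7c, let-7a and miR-125b are left out of the Mir99a and Mir100 clusters, so their shares hold for counted reads only. Mir99a made up 98.7% of the reads of its cluster in both libraries. Mir99b made up 80.7% of its cluster in replicate 1 and 81.1% in replicate 2, and Mir100 made up 87.6% and 89.5%. The excess of the first gene over the Mir125 gene was larger in the Mir99a cluster than in the others. Mir99a exceeded Mir125b-2 by 93.7-fold in replicate 1 and 96.0-fold in replicate 2, whereas Mir99b exceeded Mir125a by 10.4- and 7.13-fold and Mir100 exceeded Mir125b-1 by 7.14- and 8.62-fold. In log2 these were 6.57 ± 0.02 for the Mir99a cluster, 3.10 ± 0.38 for the Mir99b cluster and 2.97 ± 0.19 for the Mir100 cluster (SD, n = 2). The values of the Mir99b and Mir100 clusters overlapped. The Mir99b ratio alone is between genes whose 5p arms both lack exact copies in other annotated hairpins. The other ratios leave out reads of miR-125b-5p that mapped to several places.

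How far the middle gene lay below the first varied between clusters. Mir99b exceeded Mirlet7e by 7.03-fold in replicate 1 and 10.9-fold in replicate 2. Mir99a exceeded Mirlet7c-1 by 401- and 342-fold, and Mir100 exceeded Mirlet7a-2 by 730- and 610-fold. Mirlet7c-1 and Mirlet7a-2 have copied arms, so the size of these ratios is uncertain. The Mir125 gene exceeded the let-7 gene in both libraries in the Mir99a cluster, by 4.28- and 3.56-fold, and in the Mir100 cluster, by 102- and 70.8-fold. In the compact Mir99b cluster the direction differed between the libraries, with Mir125a at 0.677 of Mirlet7e in replicate 1 and 1.52 times Mirlet7e in replicate 2. The ratios were not tested, because the smallest two-sided p of an exact paired permutation with 2 libraries is 0.5.

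**Figure D2:**
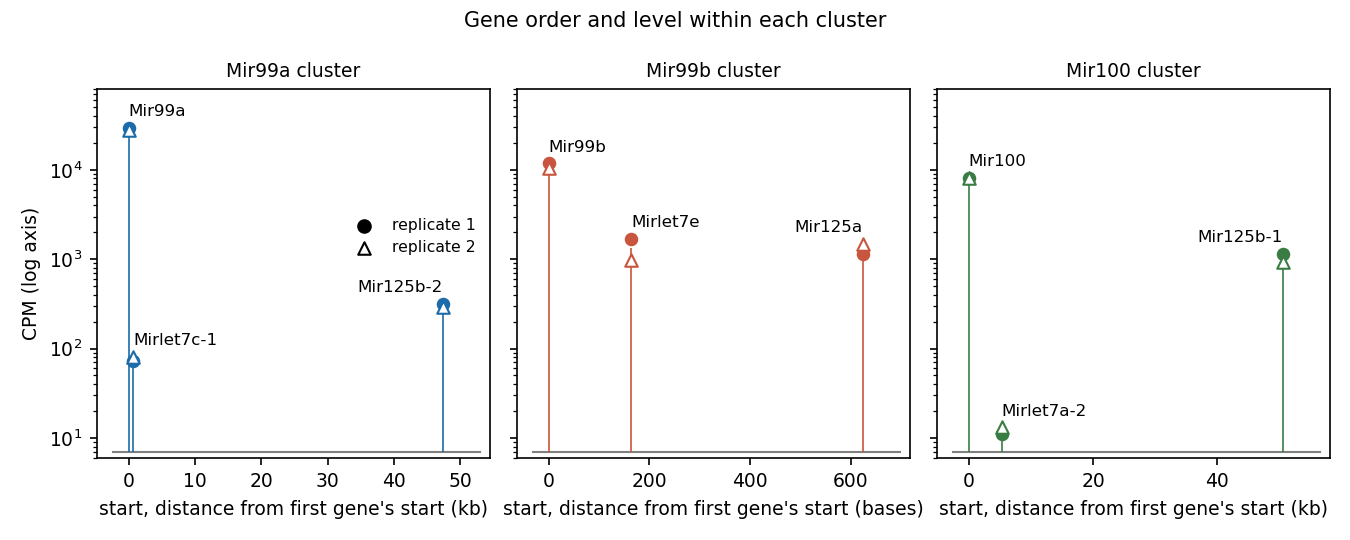
Level of each gene in CPM (log axis) against the distance of its start from the start of the first gene of its cluster, in kb for the Mir99a and Mir100 clusters and in bases for the Mir99b cluster, with replicate 1 as circles and replicate 2 as triangles. The first gene is the highest by counted reads in every cluster, and Mirlet7e and Mir125a of the compact Mir99b cluster lie at like levels.

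As whole clusters, the order by counted reads was Mir99a, Mir99b, Mir100. Multimapping reads of let-7c, let-7a and miR-125b are missing from the Mir99a and Mir100 clusters and from the total of all 9. How these reads would change the order or the shares was not tested. The Mir99a cluster took 2.99% of miRNA reads in replicate 1 (interval 2.98% to 3.00%) and 2.81% in replicate 2 (2.80% to 2.82%). The Mir99b cluster took 1.46% (1.45% to 1.47%) and 1.30% (1.29% to 1.30%), and the Mir100 cluster took 0.929% (0.922% to 0.935%) and 0.902% (0.896% to 0.908%). No library value of one cluster overlapped those of another. All 9 genes together took 5.38% of miRNA reads in replicate 1 and 5.01% of those in replicate 2. The mean was 5.19% ± 0.263 (SD, n = 2). Mir99a alone was 54.8% and 55.3% of that.

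Genes with the same seed can act on the same target sites, so each cluster gene was set beside every miRNA gene that shares its 5p seed in RefSeq. The seed ACCCGUA was found in Mir99a, Mir99b and Mir100 and in no other gene of the tables, so the clusters held all counted reads of this family. Mir99a made up 59.7% of them in replicate 1 and 59.8% in replicate 2. Mir99b made up 23.9% and 22.7%, and Mir100 made up 16.5% and 17.4%. The shares were nearly the same in both libraries.

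The seed CCCUGAG was found in 6 genes. Mir125a, Mir125b-1 and Mir125b-2 held 26.9% of the family's counted reads in replicate 1 (interval 26.5% to 27.2%) and 20.5% in replicate 2 (20.3% to 20.7%). The rest belonged to Mir351, an X-linked gene at 7055 CPM in replicate 1 and 10473 CPM in replicate 2, which was above Mir125a, Mir125b-1 and Mir125b-2 in both libraries. Mir6367 and Mir6394 were at 0 in both libraries, where the limits given above, 0.396 and 0.304 CPM, apply. Reads of miR-125b-5p that mapped to several places are missing from this division, and the share of the Mir125 genes is uncertain for that reason.

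The seed GAGGUAG was found in 14 genes. Mirlet7c-1, Mirlet7e and Mirlet7a-2 held 3.10% of this family's counted reads in replicate 1 (interval 3.05% to 3.15%) and 2.35% in replicate 2 (2.31% to 2.40%). Most of the rest lay in Mirlet7i, with 48.5% and 29.8%, and Mirlet7b, with 32.6% and 60.6%. Mirlet7g held 8.20% and 2.70%, and Mirlet7d held 4.96% and 3.66%. Mirlet7e, with 2.95% and 2.14%, came next after these 4 genes in both libraries. Mirlet7f-1, Mirlet7f-2, Mir98, Mirlet7a-1 and Mirlet7c-2 were below Mirlet7e in both libraries, from 16.0 CPM for Mirlet7a-1 to 989 CPM for Mir98 in replicate 1. Mir7k had 4 and 9 reads and Mir1961 had none. The let-7a, let-7c and let-7f genes have copied arms, and their multimapping reads are missing from the shares.

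**Figure D3:**
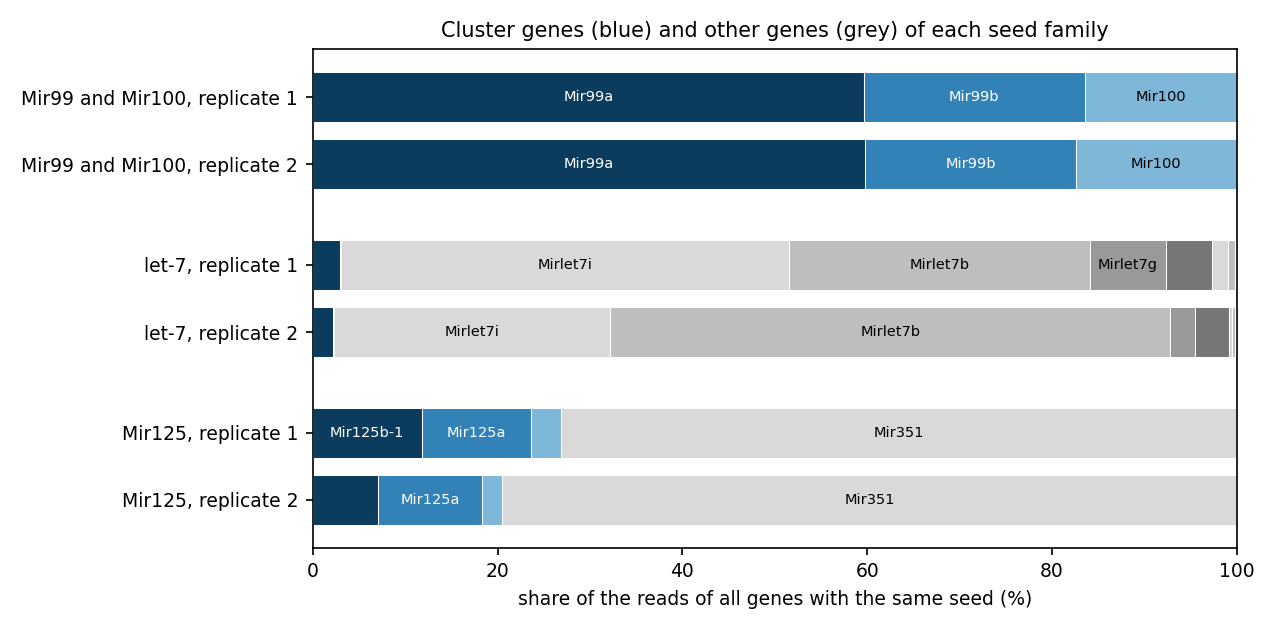
Share of the counted reads of all genes with the same 5p seed, in percent, for each seed family and library, with cluster genes in blue and other genes in grey. The clusters hold the whole Mir99 and Mir100 family, 26.9% and 20.5% of the Mir125 family beside Mir351, and 3.10% and 2.35% of the let-7 family.

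Strand mattered for 1 of the 9 genes. Mirlet7e lies inside Gm25927, an annotated miRNA gene on the opposite strand (chr17:17830343-17830459). On its own strand Mirlet7e had 12726 reads in replicate 1 and 9562 in replicate 2, and Gm25927 had none on its own strand in either library. In the count that ignores strand Mirlet7e was listed at 0 in both. The other 8 genes had the same count with strand ignored as on their own strand in both libraries, except that Mir125b-1 had 1 read more in replicate 1. That read was the only opposite-strand read at any of the 9.

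The 2 libraries gave near-equal values for the first genes. The coefficient of variation (CV, the SD over the mean) was taken from CPM, so that it is relative to library totals. It was 0.539% for Mir100. Of the 65 miRNA genes whose mean reached 1000 CPM, 5 had a lower CV than Mir99a, at 4.42%, and 9 a lower one than Mir99b, at 8.08%. The median CV over these 65 genes was 22.2%. Mirlet7e had a CV of 37.9%, with 48 of the 65 lower, and was the most uneven of the 9 genes. The CV of all 9 lay below the biological coefficient of variation that edgeR estimated over the 274 detected genes, 43.5%. The median CV of those 274 genes also lay below it, so this does not set the 9 genes apart. Over all 9 genes the median CV was 8.08%, against 25.3% over the 274 detected genes and 48.5% over the 9 let-7 genes outside the clusters.

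Each gene was tested between the libraries with an exact two-sided binomial test, fitted over all 415 genes with 10 or more reads and scaled by TMM (trimmed mean of M-values) library sizes. This test compares these libraries by counting error, not conditions, and deep genes pass it with small differences. With Benjamini-Hochberg adjustment over all 415 genes and a threshold of 0.05, 7 of the 9 cluster genes differed, where 55.7% of all genes tested did. Among the 274 detected genes, which include all 9, 202 differed, a like share. Of the 9, 5 differed and were higher in replicate 1, against 30.4% of all genes tested. Another 2 of the 9 differed and were higher in replicate 2, against 25.3%. Among the 202 detected genes that differed, 116 were higher in replicate 1 and 86 in replicate 2. None of the 9 differed 2-fold, whereas 59 of the 274 detected genes (21.5%) did. The median size of the log2 difference was 0.17 over the 9 genes, 1.00 over the let-7 genes outside the clusters and 0.52 over the detected genes.

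Mirlet7e was 1.70-fold higher in replicate 1, a log2 difference of 0.76 (interval 0.72 to 0.80), and its adjusted p was below the range of the software. Mir125a, which follows it in the same cluster after 367 bases, was 1.33-fold higher in replicate 2, with a log2 of replicate 1 over replicate 2 of -0.41 (interval -0.45 to -0.37; exact binomial adjusted p = 1.78e-97). Mir125b-1 was 1.19-fold higher in replicate 1 (log2 0.25, interval 0.21 to 0.29; exact binomial adjusted p = 7.38e-31). These are the largest differences among the 7 genes that passed. The first genes were close to equal, at 1.10-fold for Mir99b (log2 0.13) and 1.04-fold for Mir99a (log2 0.06), both higher in replicate 1. For Mir100 the log2 difference was -0.019 (interval -0.035 to -0.0042; exact binomial adjusted p = 0.0228), and it turned to 0.011 when library totals replaced TMM. Mir125b-2 was 1.07-fold higher in replicate 1 (exact binomial adjusted p = 0.0328), a call lost with DESeq2 size factors (0.148) and with no filter on low counts (0.055). Mirlet7c-1, with a log2 difference of -0.17 (exact binomial adjusted p = 0.0609), and Mirlet7a-2, with -0.28 (0.252), did not pass. Mirlet7c-1 did pass with DESeq2 size factors (exact binomial adjusted p = 0.0256) and among genes with 100 or more reads (0.0415).

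Of the let-7 genes outside the clusters, 8 of 9 differed between the libraries by the same test, where 202 of the 274 detected genes did. Of the 8, 7 were higher in replicate 1 and 1, Mirlet7b, was higher in replicate 2. The let-7 gene of the Mir99b cluster had the direction of those 7. Mirlet7c-1 (log2 -0.17) and Mirlet7a-2 (log2 -0.28) had the other direction and did not pass. Mir351 was 1.52-fold higher in replicate 2 and Mir125a was 1.33-fold higher there, while Mir125b-1, with the same seed, was higher in replicate 1.

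**Figure D4:**
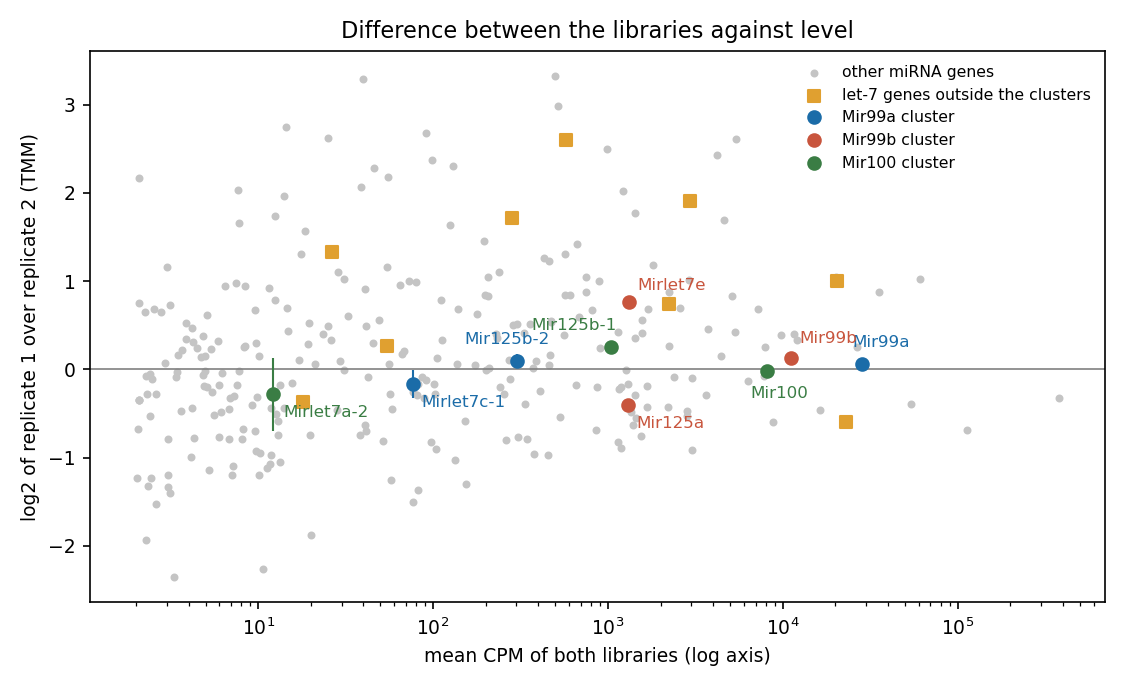
Log2 of replicate 1 over replicate 2 (TMM scaling) against mean CPM (log axis) for miRNA genes with 10 or more reads whose mean reached 2 CPM, with cluster genes coloured by cluster and their 95% counting intervals as bars. Mir99a, Mir99b and Mir100 lie between -0.02 and 0.13, and the let-7 genes outside the clusters reach 2.60.

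Genes with the most similar pairs of levels were found by the distance between log2(CPM + 1) values over the 2 libraries, among genes outside the clusters whose mean reached 100 CPM. Mir23a, at 29161 CPM in replicate 1 and 24031 CPM in replicate 2, was nearest to Mir99a (distance 0.21), followed by Mirlet7b (0.67). Mir23b (0.19) and the muscle miRNA gene Mir133b (0.21) were nearest to Mir99b. Mir149 (0.073) and Mir27b (0.20) were nearest to Mir100, and Mir615 (0.083) and Mir500 (0.17) to Mir125a. With 2 libraries of 1 group this likeness is one of level and says nothing of a shared pattern across conditions.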

How the data were processed

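The authors deposited unnormalized counts of reads for every miRNA gene, with mm10 as assembly and M21 as annotation according to an accompanying text. Which aligner, counter, trimming or filters they used is not given in the sources used here. From their values, the 3 columns of counts ignore strand, take the gene's own strand and take the opposite strand. The 4 summary lines name no gene and entered neither totals nor tests. Of 15349205 reads in replicate 1, 22.0% were multimapping, 22.7% unmapped and 5.88% outside features. Of 18450359 reads in replicate 2, 17.9%, 23.1% and 5.57% were.

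All 2202 identifiers matched GENCODE M21, the source of names, coordinates and the hairpins searched for copies of mature arms. Mature sequences and seeds are from RefSeq. CPM used own-strand reads over all miRNA genes. Ratios used a pseudocount of 0.5 reads. The binomial test is described with its result. Its fold is replicate 1 over replicate 2, and it was tested on simulated data. The simulated counts held counting error only and no spread between replicates. How the test behaves on libraries with such spread was not tested. With 1 group, no contrast for edgeR's quasi-likelihood test exists. Scaling and dispersion (estimateDisp, intercept only) came from edgeR 4.0.16 and DESeq2 1.42.0 in R 4.3.3, and other values from Python 3.11.15 with numpy 2.4.6, pandas 2.3.3 and scipy 1.17.1. The libraries are labelled as biological replicates. Reads without molecular identifiers are not independent molecules, so p-values and intervals cover counting error only.

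The members, lists and tests were chosen with earlier results of these data known. The genes named were the 9 members, genes with the same 5p seed, the let-7 genes outside the clusters, overlapping annotated genes, and the 2 genes nearest in level to Mir99a, Mir99b, Mir100 and Mir125a. Alternatives were the count that ignores strand, other denominators, each library left out, other thresholds, pseudocounts and scalings.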

Additional observations from a re-analysis of the deposited data

Results flagged for a closer look

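Multimapping reads, which are outside the counts used above, exceeded the limit that a count of 0 allows. So did the opposite-strand count of Gm25927. The series has no control samples to set these against. The multimapping line held 3378438 reads in replicate 1 and 3295854 in replicate 2, which is 290 and 253 times the reads counted on the 4 cluster genes whose 5p arm has an exact copy in another hairpin. How many of them came from let-7a, let-7c or miR-125b was not tested. The opposite-strand count of Gm25927 was 12726 in replicate 1 and 9562 in replicate 2, the same numbers as the own-strand count of Mirlet7e, which lies inside it. A single group of 2 libraries allows no search for outlying samples or for effects that differ between groups.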

How the results depend on the processing

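All 9 genes were detected at 1, 2 or 10 CPM and with either library left out, and 8 when strand was ignored. Between the libraries 7 of the 9 genes differed as reported, with 231 of 415 over all genes tested. With 100 or more reads 8 of 9 differed (205 of 240 over all), with no filter 6 of 9 (221 of 708), with library totals 6 of 9 (230 of 415), with DESeq2 size factors 7 of 9 (230 of 415), and with strand ignored 6 of the 8 tested (215 of 396). With strand ignored, shares of miRNA reads were 3.31% for the Mir99a cluster, 1.05% for the Mir100 cluster, 5.46% for the first genes, 0.0102% for the let-7 genes, 0.303% for the Mir125 genes and 5.78% for all 9, and the cluster genes held 0.183% of the let-7 seed family. With all reads as the denominator they were 1.49%, 0.708% and 0.471% for the Mir99a, Mir99b and Mir100 clusters, 2.46%, 0.072% and 0.136% for the first, let-7 and Mir125 genes, and 2.67% for all 9. Without Mir206 in the denominator they were 4.67%, 2.22% and 1.48% for the clusters, 7.72%, 0.225% and 0.428% for the first, let-7 and Mir125 genes, and 8.37% for all 9. Both are rescalings by construction that keep the order of genes within a library. With strand ignored, where Mirlet7e is listed at 0, its ratios came from the pseudocount, at log2 17.56 for Mir99b over Mirlet7e, 14.45 for Mir125a over Mirlet7e, -10.38 for Mirlet7e over Mirlet7c-1 and -7.71 for Mirlet7e over Mirlet7a-2. Leaving out a library gave log2 ratios from -0.56 to 0.61 for Mir125a over Mirlet7e and from -0.0028 to 0.66 for Mir125a over Mir125b-1, so replicate 2 alone gives Mir125a the higher value. The other 14 ratios kept their direction with either library left out, and all 16 with a pseudocount of 0.1 or 1. With library totals, Mir100 had a log2 difference of 0.011 between the libraries (exact binomial adjusted p = 0.233), a small shift that turned its sign. No paired analysis was possible because the series has 1 group. Depth limits Mirlet7a-2, with 84 and 130 reads, and the reads left out of shared arms limit it, Mirlet7c-1, Mir125b-1 and Mir125b-2.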
